A study of Mus musculus with 221 samples.

Results

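The genes described here are 10 factors that write, copy, remove or protect DNA methylation: *Dnmt1*, *Dnmt3a*, *Dnmt3b*, *Dnmt3l*, *Uhrf1*, *Tet1*, *Tet2*, *Tet3*, *Dppa3* and *Zfp57*. They were chosen by symbol, as a list of methyltransferases, Tet enzymes and protectors of methylation. All 10 were found among the 55291 genes of the count table, and all 10 passed the filter on low counts that left 14820 genes for testing.

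RNA was measured in individual mouse embryos at the early 2-cell stage, after in vitro fertilization. The fathers were C57BL/6N males kept on high-fat (HFD) or low-fat (LFD) food, and there were 99 LFD embryos and, in 2 ranges of title numbers described below, 84 and 38 HFD embryos. Each embryo was profiled by Smart-seq2, in which its polyadenylated RNA is copied and amplified by PCR. In both groups the oocyte donors were C57BL/6N mice with Staudach (ST) mitochondrial DNA, so that every embryo had a C57BL/6N nucleus and ST mitochondria. Per the study's methods, the males received their diet as young adults for a short period, sperm of 4 males per diet was used after freezing and thawing, and each fertilization date paired 1 HFD male with 1 LFD male that were not used on other dates. The labels give neither sire nor date, so a difference between diets cannot be told apart from a difference between the few sires, and the p-values below measure the spread between embryos only.

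DNA methylation in mammals is placed on cytosines that precede a guanine (CpG) by the de novo enzymes Dnmt3a and Dnmt3b, with Dnmt3l as a cofactor without enzymatic activity, and is copied after replication by Dnmt1, which Uhrf1 recruits to half-methylated DNA. The Tet enzymes oxidize methylcytosine, which leads to its loss. After fertilization most methylation inherited from the gametes is lost, fastest from the paternal genome, where the oocyte's Tet3 acts. Dppa3 (Stella, PGC7) shields the maternal genome from Tet3 in the zygote and limits Uhrf1 in the oocyte, and the zinc finger protein Zfp57 binds imprinted control regions and keeps their methylation. At the early 2-cell stage much of the RNA of such factors is a maternal store laid down in the oocyte. No methylation was measured in these embryos. All values below are RNA levels.

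The promoters of these genes differ in their content of CpG, the site at which the Dnmt and Tet enzymes among them act. RefSeq sequences (GRCm38.p6) held 18 promoter windows for 9 of the 10 genes, and each was read over the 250 bases before the start site. The motif CG, searched on the strand shown, occurred between 2 and 51 times in these windows, against a median of 6 in all 32851 windows. *Dnmt1* had 3 start sites that differed in CpG content within 1 gene, and its most upstream and most downstream windows are shown for that contrast. *Uhrf1* and *Tet3* are shown because their RNA varied together from embryo to embryo (below). Each sequence is written 5′ to 3′ on the strand of the gene, with CpG in capitals.
Dnmt1, most upstream start, chr9:20959889-20960138, minus strand: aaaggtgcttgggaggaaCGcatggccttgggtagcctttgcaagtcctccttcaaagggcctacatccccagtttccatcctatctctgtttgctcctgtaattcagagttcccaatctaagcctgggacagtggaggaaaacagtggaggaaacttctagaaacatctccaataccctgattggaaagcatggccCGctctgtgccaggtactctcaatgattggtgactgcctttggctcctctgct
Dnmt1, most downstream start, chr9:20952624-20952873, minus strand: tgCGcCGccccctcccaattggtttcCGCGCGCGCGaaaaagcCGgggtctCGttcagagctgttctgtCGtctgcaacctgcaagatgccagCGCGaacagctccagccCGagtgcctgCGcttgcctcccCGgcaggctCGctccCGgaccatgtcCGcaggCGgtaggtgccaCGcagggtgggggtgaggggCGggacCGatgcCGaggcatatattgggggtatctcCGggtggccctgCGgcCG
Uhrf1, downstream of its 2 starts, chr17:56304063-56304312, plus strand: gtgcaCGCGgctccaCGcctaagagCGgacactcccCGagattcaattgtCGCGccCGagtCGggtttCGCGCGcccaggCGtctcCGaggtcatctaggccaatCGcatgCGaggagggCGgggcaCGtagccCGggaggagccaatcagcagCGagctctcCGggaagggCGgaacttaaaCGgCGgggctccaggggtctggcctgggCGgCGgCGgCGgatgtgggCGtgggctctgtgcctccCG
Tet3, chr6:83441679-83441928, minus strand: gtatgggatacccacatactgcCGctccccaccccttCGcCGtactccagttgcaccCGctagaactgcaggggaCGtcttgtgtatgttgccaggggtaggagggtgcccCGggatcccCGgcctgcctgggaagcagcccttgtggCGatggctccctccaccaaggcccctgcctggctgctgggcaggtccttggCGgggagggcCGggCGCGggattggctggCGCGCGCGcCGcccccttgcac

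The most upstream *Dnmt1* window held 2 CpGs, a number that 81.2% of all windows reach or pass, and the most downstream one held 26, which 9.59% of windows reach. The middle *Dnmt1* window held 7. The deposited counts sum the exons of a gene, so transcripts from its 3 starts were not separated. The *Uhrf1* window shown held 30 CpGs and its other window 10, and the single *Tet3* window held 17. The highest content was that of *Tet2*, with 51 CpGs, and *Dnmt3a* had 38 and 40 in the windows of its 2 upstream starts. The windows of *Dnmt3l* (3, 4 and 5) and *Zfp57* (3, 6 and 7) lay near the median of all promoters. The GC box GGGCGG, on either strand, occurred in 11 of the 18 windows and in 32.7% of all windows, and TATAAA, on either strand, in 1 of the 18 (*Zfp57*) and in 12.4% of all. These matches are letters in a window and were not tested for use.

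Total counts ran from 1937251 to 17246791 per embryo, with medians of 5718556 in HFD and 5701723 in LFD, and 8 embryos, 4 of each diet, had fewer than 15000 genes with a count. The labelled stage was checked against marker lists. Of 16 oocyte and maternal markers, 14 were counted in every embryo, as were 11 of 15 markers of the 2-cell stage. Of 14 cumulus cell markers, 8 had a median count of 0, *Has2*, *Ptgs2*, *Ptx3* and *Fshr* among them, and of 10 sperm markers 6 had one, with *Prm1*, *Tnp1* and *Tnp2* among these. The other markers of both lists, such as *Kitl* and *Prm2*, had medians above 0. The median share of mitochondrial counts was 5.61% in HFD and 4.38% in LFD. The summed level of 8 Y-linked genes, as log2 of the summed counts in each 1000000 (CPM) plus 0.5, had a median of 5.48 in HFD (-1 to 7.22) and of 3.57 in LFD (-1 to 7.14). The 14 macrophage markers had summed levels of 5.45 to 7.03 in LFD embryos and of -1 to 12.68 in HFD embryos. Of these markers, *Adgre1*, *Fcer1g*, *Ptprc* and *Tyrobp* had a median count of 0, and the others had medians above 0. The summed cumulus cell level had a median of 5.32 in HFD (0.91 to 8.30) and of 5.31 in LFD (-1 to 6.42). That of the sperm markers was 2.56 in HFD (-1 to 4.62) and 2.68 in LFD (-0.40 to 5.45). No member was called with the Y-linked or the macrophage level as a covariate. None was called without them either, so the calls cannot show the part of these levels. The part of the mitochondrial share was not tested.

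The 10 genes covered a wide range of RNA levels, and *Dppa3* stood far above the rest. Levels between genes were compared as RPKM (reads per kilobase of exon in each 1000000 counts). *Dppa3* had a median of 3518 over all embryos, followed by *Zfp57* with 79.7, *Uhrf1* with 45.9, *Dnmt3l* with 33.4 and *Tet3* with 14.3. *Dnmt1* had a median of 8.92, *Dnmt3b* of 7.43, *Dnmt3a* of 4.89, *Tet1* of 1.87 and *Tet2* of 0.542. *Dppa3* exceeded *Zfp57* in every embryo, and *Dnmt3l* exceeded *Tet3* in all but 3. At the low end, *Tet1* exceeded *Tet2* in 197 embryos and was exceeded by it in 24. The least certain step was *Dnmt1* over *Dnmt3b*, which held in 146 embryos and was reversed in 75, and *Uhrf1* over *Dnmt3l* and *Dnmt3b* over *Dnmt3a* each held in 179. Among the Tet genes *Tet3* was the highest, with *Tet1* and then *Tet2* below it, and among the Dnmt3 genes that of the cofactor, *Dnmt3l*, exceeded both others. Other steps depend on the exon length, which sums all annotated exons (16695 bases for *Tet3*, 2988 for *Dnmt3l*). In median CPM *Tet3* (239) exceeded *Uhrf1* (195) and *Dnmt3l* (99.8), and *Dnmt3a* (81.5) exceeded *Dnmt1* (65.8) and *Dnmt3b* (37.9).

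**Figure D1:**
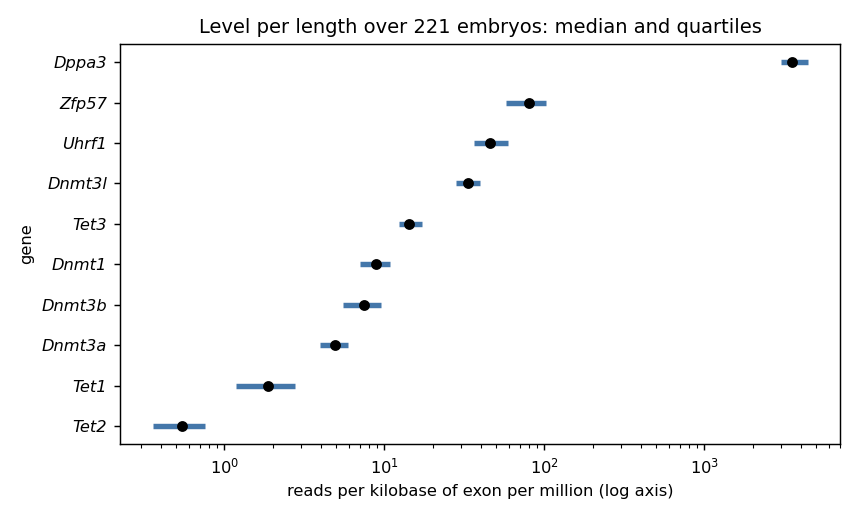
RNA level of each gene (RPKM, log axis), with the median over all embryos as a point and the 25th to 75th percentile as a bar. *Dppa3* lies at a median of 3518, far to the right of *Zfp57* at 79.7, and *Tet2* is lowest at 0.542.

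These levels carry limits that come from the counting. *Dppa3* has a short exon length of 892 bases, and 28.9% of the 31-base words of its GENCODE transcripts also occur in its pseudogene *Dppa3-ps*, which had a mean of 20.03 counts beside 19890 for *Dppa3*. For *Uhrf1*, 21.9% of words are shared with *Gm5648* (mean 1.24 counts), and for *Dnmt3b*, 13.5% are shared with its close relative *Dnmt3c* (mean 21.8 counts). Reads that map to both copies are left out by the counting program's default, so the levels of these 3 genes are uncertain. Exons of *Dnmt3a*, *Dnmt3l* and *Tet2* overlap exons on the opposite strand of *Dnmt3aos* (133 bases), *Aire* (67 bases) and *Gm42567* (43 bases). Smart-seq2 keeps no strand, so reads in these stretches cannot be assigned to one of the 2 genes. The other members share no exon base with another gene of the table.

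None of the 10 genes was called different between HFD and LFD embryos at a false discovery rate (FDR) of 0.05, while 318 of the 14820 genes tested were called, or 2.15%. The test was edgeR's quasi-likelihood test with Benjamini-Hochberg adjustment over all genes tested. Of these calls, 186 were higher in HFD (1.26%) and 132 lower (0.891%), a split that became 164 and 172 with RLE size factors and 228 and 234 with DESeq2. Only *Dnmt1* had an unadjusted p under 0.05 in edgeR, as had 13.1% of all genes tested. DESeq2, which called 3.38% of the 13670 genes to which it gave an adjusted p, and limma-voom, which called 2.23% of all genes tested, called none of the 10 either. At an unadjusted p under 0.05 they had 4 and 3 of them, against 14.7% and 14.2% of all genes tested. Fold changes below are log2 of HFD over LFD with a standard error (SE), levels are log2(CPM + 1), and 8 of the 10 fold changes were negative. Their median was -0.10, and the median over all genes tested was 0.01.

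*Dnmt1* (chr9:20907209-20959888), the maintenance methyltransferase, had the lowest fold change of the set. Its level ran from 2.22 through a median of 5.89 to 7.23 in HFD embryos, and from 4.23 through 6.16 to 7.02 in LFD embryos. The groups overlapped nearly throughout, with 84 HFD embryos under the LFD median, 38 above it and 1 under the lowest LFD embryo. The log2 fold change was -0.19 (SE 0.073, 95% interval -0.33 to -0.05), with an adjusted p of 0.178 and an unadjusted p of 0.0106 in the edgeR fit. *Uhrf1* (chr17:56303321-56323486), which brings Dnmt1 to replicated DNA, ran from 3.53 through 7.51 to 9.04 in HFD and from 4.58 through 7.69 to 9.39 in LFD. Its fold change was -0.17 (SE 0.089, interval -0.34 to 0.01, adjusted p = 0.413 in the edgeR fit). The ranges overlapped, with 77 HFD embryos under the LFD median and 45 above it.

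The de novo enzymes had intervals that included 0. *Dnmt3a* (chr12:3806007-3914443) had levels from 4.42 through 6.34 to 7.43 in HFD and from 4.68 through 6.42 to 7.39 in LFD, with a fold change of -0.05 (SE 0.060, interval -0.17 to 0.06). *Dnmt3b* (chr2:153649450-153687730) had levels from 1.03 through 5.16 to 6.19 in HFD and from 3.06 through 5.36 to 6.39 in LFD, with a fold change of -0.15 (SE 0.083, interval -0.31 to 0.01). The lowest *Dnmt3b* values belonged to a few embryos of both diets, and the bulk of the groups overlapped. *Dnmt3l* (chr10:78041947-78063622), the cofactor, had levels from 4.87 through 6.62 to 7.75 in HFD and from 5.41 through 6.67 to 7.86 in LFD. Its fold change was -0.07 (SE 0.062, interval -0.19 to 0.05). The adjusted p in the edgeR fit was 0.785 for *Dnmt3a*, 0.444 for *Dnmt3b* and 0.683 for *Dnmt3l*.

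Among the Tet enzymes, *Tet3* (chr6:83362373-83459084), the form stored in the oocyte, had levels from 4.98 through 7.81 to 9.28 in HFD and from 6.55 through 7.98 to 9.12 in LFD. Its fold change was -0.13 (SE 0.068, interval -0.26 to 0.00), with an adjusted p of 0.406 in the edgeR fit. In HFD, 78 embryos lay under the LFD median and 44 above it, with 3 under the lowest LFD embryo. *Tet1* (chr10:62804570-62908996) had levels from 1.19 through 4.80 to 6.33 in HFD and from 1.87 through 4.98 to 6.37 in LFD, and a fold change of -0.09 (SE 0.118, interval -0.32 to 0.14). *Tet2* (chr3:133463679-133545139) had levels from 0 through 3.32 to 5.02 in HFD and from 0 through 3.36 to 5.01 in LFD, and a fold change of 0.02 (SE 0.123, interval -0.22 to 0.27). It was counted in all but 2 embryos, with a mean of 58.2 counts, the fewest of the set. For *Tet1* and *Tet2* the adjusted p in the edgeR fit was 0.823 and 0.972, and their intervals were the widest of the 10.

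Of the protectors, *Dppa3* (chr6:122626410-122630272) had levels from 10.66 through 11.64 to 13.48 in HFD and from 10.40 through 11.61 to 13.60 in LFD. Its fold change was 0.09 (SE 0.073, interval -0.05 to 0.23), the highest of the set, with an adjusted p of 0.642 in the edgeR fit. *Zfp57* (chr17:37001163-37010635) had levels from 5.78 through 8.16 to 10.15 in HFD and from 6.65 through 8.31 to 10.78 in LFD. Its fold change was -0.10 (SE 0.097, interval -0.29 to 0.09), with an adjusted p of 0.729 in the edgeR fit. For both genes the groups overlapped over almost their whole range.

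The differences were also taken on the scale of mean log2(CPM + 1), where each member had its own 2-sided permutation test, without adjustment. CPM divide by total counts, without the TMM size factors of the edgeR fit. In every member the log2 ratio of mean CPM, HFD over LFD, was under the edgeR fold change. For *Dnmt1* it was -0.23 beside -0.19, and for *Dppa3* 0.05 beside 0.09. On the log2(CPM + 1) scale, 5 of the 10 had a permutation p under 0.05, all of them lower in HFD. These were *Dnmt1* (-0.27, p = 0.00052), *Tet3* (-0.21, p = 0.00203), *Uhrf1* (-0.21, p = 0.0285), *Dnmt3l* (-0.13, p = 0.0317) and *Dnmt3b* (-0.19, p = 0.0336). The sizes of *Tet3*, *Dnmt3l*, *Dnmt3a* (-0.11, permutation p = 0.0711) and *Zfp57* (-0.17, permutation p = 0.0526) were over 1.5 times those of the edgeR fit. *Dppa3* was at 0.04, less than in edgeR, and the sign of *Tet2* turned (-0.03). The share of all genes with such a p was not computed, so neither these values nor their number has a background. The part of the missing size factors was not tested.

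**Figure D2:**
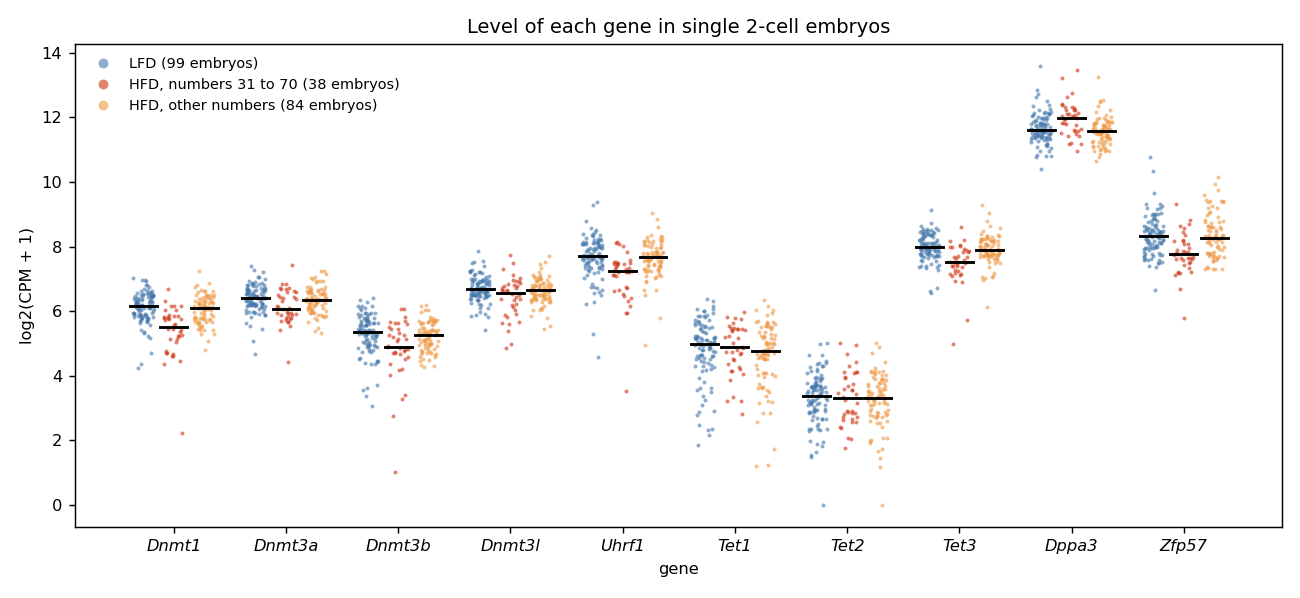
Level of each gene, as log2(CPM + 1), in each embryo (points), for 99 LFD embryos, the 38 HFD embryos numbered 31 to 70 and the 84 other HFD embryos, with group medians as black bars. The groups overlap in every gene, and the median of *Dnmt1* in the HFD embryos numbered 31 to 70 is 5.51, against 6.16 in LFD and 6.10 in the other HFD embryos.

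The HFD embryos whose titles carry the numbers 31 to 70 (38 embryos) had lower medians than the other 84 in 8 of these genes and higher ones in *Tet1* and *Dppa3*. Of all genes tested, 53.2% had a lower median in these 38. This range was taken from earlier results of these data, so its values are given as a description without a test, and the labels do not say what the numbers mark. The median *Dnmt1* level was 5.51 in these embryos, 6.10 in the other HFD embryos and 6.16 in LFD. Of the 38, 35 lay under the LFD median, against 49 of the other 84, and 0.459% of all genes tested had as many of these 38 embryos under it. *Uhrf1* had medians of 7.24, 7.67 and 7.69 in the same order, with 33 of the 38 under the LFD median, a count that 1.28% of all genes reached. For *Tet3* they were 7.52, 7.90 and 7.98, and for *Zfp57* 7.77, 8.27 and 8.31, each with 31 of the 38 under the LFD median, a count that 2.91% of all genes reached. In all of these the median over the 84 other HFD embryos lay close to that of LFD. For *Uhrf1* and *Zfp57* these 84 include ranges of numbers with differences from LFD of both signs (below). The medians were 4.90, 5.26 and 5.36 for *Dnmt3b* and 6.08, 6.36 and 6.42 for *Dnmt3a*, in the same order again. *Dnmt3l* (6.57, 6.65 and 6.67), *Tet1* (4.88, 4.77 and 4.98) and *Tet2* (3.30, 3.32 and 3.36) had the smallest gaps. *Dppa3* went the other way, with medians of 11.997, 11.57 and 11.61 and 27 of the 38 above the LFD median, a count that 7.27% of all genes reached.

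The difference of medians between these 38 and the other HFD embryos was -0.59 for *Dnmt1*, and 8.62% of all genes tested had a lower one. For *Zfp57* (-0.51), *Uhrf1* (-0.44) and *Tet3* (-0.37), 11.03%, 13.8% and 16.6% had a lower one. For *Dppa3* it was 0.42, and 93.1% of genes had a lower one. Over all genes tested the median of this difference was -0.02, and its 5th and 95th percentiles were -0.81 and 0.48, so the differences of all 10 members lay between these percentiles. The 38 libraries also differed in other measures. They included 3 of the 4 HFD embryos with fewer than 15000 genes. The 38 had a median of 17613 genes with a count, against 19310 in the other HFD embryos and 18723 in LFD, and median mitochondrial shares of 6.21%, 5.29% and 4.38%. The median summed level of the maternal list was 12.45 in them, 12.72 in the other HFD embryos and 12.63 in LFD. The part of these measures in the lower levels was not tested.

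Without these 38 embryos the fold changes of most members moved to near 0. *Dnmt1* then had -0.02 (SE 0.067, adjusted p = 0.976 in edgeR), *Uhrf1* -0.01, *Dnmt3b* -0.06, *Dnmt3l* -0.02 and *Tet1* -0.11. The sign turned for *Dnmt3a* (0.01), *Tet3* (0.0008), *Zfp57* (0.07) and *Dppa3* (-0.04). The fold change of *Tet1* moved away from 0, from -0.09 to -0.11.

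**Figure D3:**
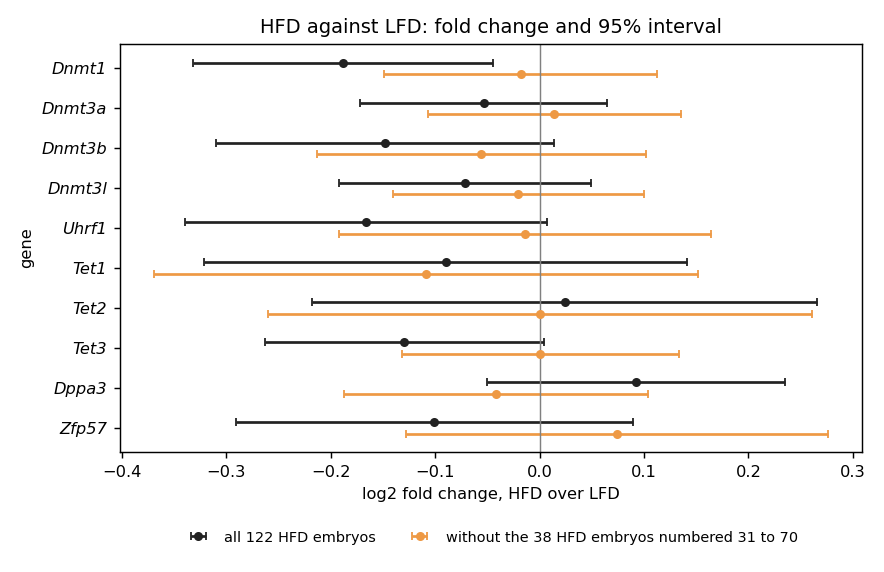
Log2 fold change of HFD over LFD for each gene with its 95% interval, from edgeR with all HFD embryos (black) and without the 38 numbered 31 to 70 (orange). With all embryos *Dnmt1* lies at -0.19 with an interval below 0, and without the 38 it lies at -0.02.

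The embryo numbers of both diets were also compared in 11 ranges of 10 numbers, as differences of mean log2(CPM + 1), HFD minus LFD. *Tet3* was lower in HFD in 10 of the 11 ranges, *Dnmt1*, *Dnmt3b*, *Dnmt3l* and *Zfp57* in 8, *Dnmt3a*, *Uhrf1* and *Tet1* in 7, and *Tet2* and *Dppa3* in 5. No share of all genes was set beside these counts, and the CPM carry no TMM size factors. Outside numbers 31 to 70 *Tet3* was lower in 6 of 7 ranges, with differences from -0.31 to 0.19. They were -0.04 in numbers 1 to 10, 11 to 20 and 81 to 90, and -0.07 in numbers 91 to 100. In means, *Dnmt1* was steady over the 4 ranges from 31 to 70, with differences of -0.74, -0.75, -0.76 and -0.83, and lay between -0.27 and 0.32 in the other 7. Its medians in these 4 ranges were less evenly apart. They were 5.61, 5.58, 5.19 and 5.81 in HFD and 6.11, 5.99, 5.93 and 6.46 in LFD. The largest single difference was that of *Uhrf1* in numbers 41 to 50, at -1.07, the range in which *Tet3* (-0.92), *Dnmt3b* (-0.84), *Dnmt3l* (-0.69), *Zfp57* (-0.69) and *Dnmt3a* (-0.56) also had their lowest values. The means in this range include HFD embryo 48 (*Uhrf1* 3.53, *Tet3* 5.71, and *Dnmt1* 2.22, its lowest level in any embryo) and HFD embryo 42 (*Dnmt3b* 1.03). The medians in numbers 41 to 50 lay closer. They were 6.94 in HFD and 7.65 in LFD for *Uhrf1*, 7.31 and 7.98 for *Tet3*, and 4.84 and 5.47 for *Dnmt3b*. In the 4 ranges from 31 to 70, 6 members were lower in HFD in all 4 and *Dppa3* was higher in all 4. Over all genes tested 19.7% were lower in all 4 and 10.4% higher in all 4. With the number ranges as a fixed factor, *Dnmt1* (-0.24, SE 0.077, adjusted p = 0.0465) and *Tet3* (-0.21, SE 0.066, adjusted p = 0.0443) were called in edgeR. That fit held only the 11 ranges with both diets, so HFD embryos of ranges without LFD embryos were left out. It called 549 genes, or 3.78% of those tested. In edgeR on the embryos with shared numbers only, without the ranges, *Dnmt1* was also called (-0.26, adjusted p = 0.0383). *Tet3* was not called there (-0.21, adjusted p = 0.0814). The part of the ranges and that of the embryos left out were not told apart. With the ranges of each diet as a random effect in limma-voom, *Dnmt1* had -0.24 (SE 0.087, adjusted p = 0.255). That fit called no member, 2 of them had an unadjusted p under 0.05, and it called 0.58% of all genes tested.

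**Figure D4:**
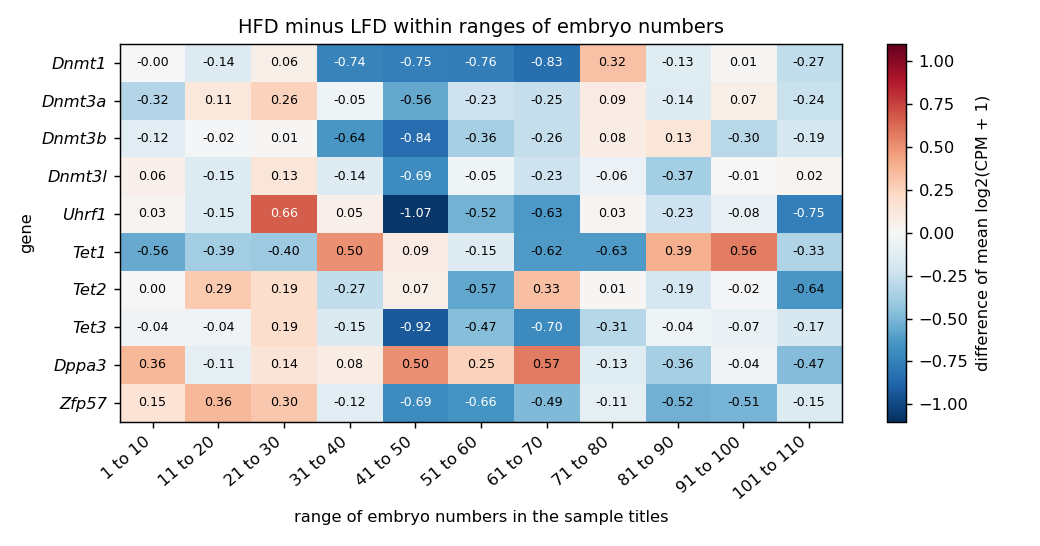
Difference of mean log2(CPM + 1), HFD minus LFD, for each gene (rows) in the 11 ranges of embryo numbers that hold both diets (columns), with blue for lower in HFD. *Dnmt1* lies between -0.83 and -0.74 in the 4 ranges from 31 to 70, where *Dppa3* is above 0.

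Within both diets the genes differed in how much they varied between embryos. On the log2(CPM + 1) scale the standard deviation (SD) over all embryos was 0.44 for *Dnmt3a*, 0.46 for *Dnmt3l*, 0.49 for *Dppa3* and 0.51 for *Tet3*. It was 0.59 for *Dnmt1*, 0.66 for *Dnmt3b*, 0.67 for *Zfp57*, 0.71 for *Uhrf1*, 0.82 for *Tet2* and 0.98 for *Tet1*. Low counts widen the spread, so each SD was set among genes within 0.5 of the same mean level. *Zfp57* and *Uhrf1* then lay above 90.3% and 90.2% of such genes and *Tet1* above 86.4%, while *Dnmt3a* lay above 17.5%. *Tet1*, at a median of 28.9 CPM, ran from 1.28 to 81.7 CPM.

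Part of this variation was shared. Of the 45 pairs of members, 12 had a Spearman correlation over 0.3 across all embryos, all of them among *Dnmt1*, *Dnmt3a*, *Dnmt3l*, *Uhrf1*, *Tet3* and *Zfp57*. The highest were *Uhrf1* with *Zfp57* (0.62), *Uhrf1* with *Tet3* (0.59), *Tet3* with *Zfp57* (0.54) and *Dnmt3a* with *Uhrf1* (0.51). *Uhrf1* with *Zfp57* was alike within the diets, with 0.65 in HFD and 0.60 in LFD. These points share library depth and composition, so the values describe the embryos and carry no p. No share over pairs of all genes was set beside the 12, so their number has no background. *Dnmt3b* and *Tet2* had no pair over 0.3 in either direction. The lowest correlations were those of *Tet3* with *Dppa3* (-0.40) and *Tet1* with *Zfp57* (-0.33).

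The same 6 genes except *Dnmt1* were also the ones that followed the summed level of the maternal list, which holds oocyte genes such as the zona pellucida proteins and the parts of the subcortical maternal complex. The correlation with that level was 0.69 for *Uhrf1*, 0.67 for *Zfp57*, 0.52 for *Tet3*, 0.49 for *Dnmt3l* and 0.41 for *Dnmt3a*. It was 0.24 for *Dnmt1*, 0.07 for *Dnmt3b*, 0.04 for *Tet2* and -0.002 for *Dppa3*. Over all 14820 genes tested the median was -0.004, and the 5th and 95th percentiles were -0.54 and 0.49. *Uhrf1* and *Zfp57* thus lay at percentiles 99.5 and 99.3 of all genes. *Tet1* went the other way, with -0.46 over all embryos, -0.57 in HFD and -0.33 in LFD, at percentile 8.80. *Dppa3* correlated with the list of 2-cell genes at 0.37 and with the number of genes counted at -0.42 (-0.36 without the embryos of few genes). These correlations of *Dppa3* were not set among those of all genes. The share of mitochondrial counts, which differed between the diets, correlated with *Uhrf1* at -0.43, with *Dnmt3l* at -0.42, with *Dnmt1* at -0.37 and with *Tet1* at -0.01, and its part in the comparison of diets was not tested.

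**Figure D5:**
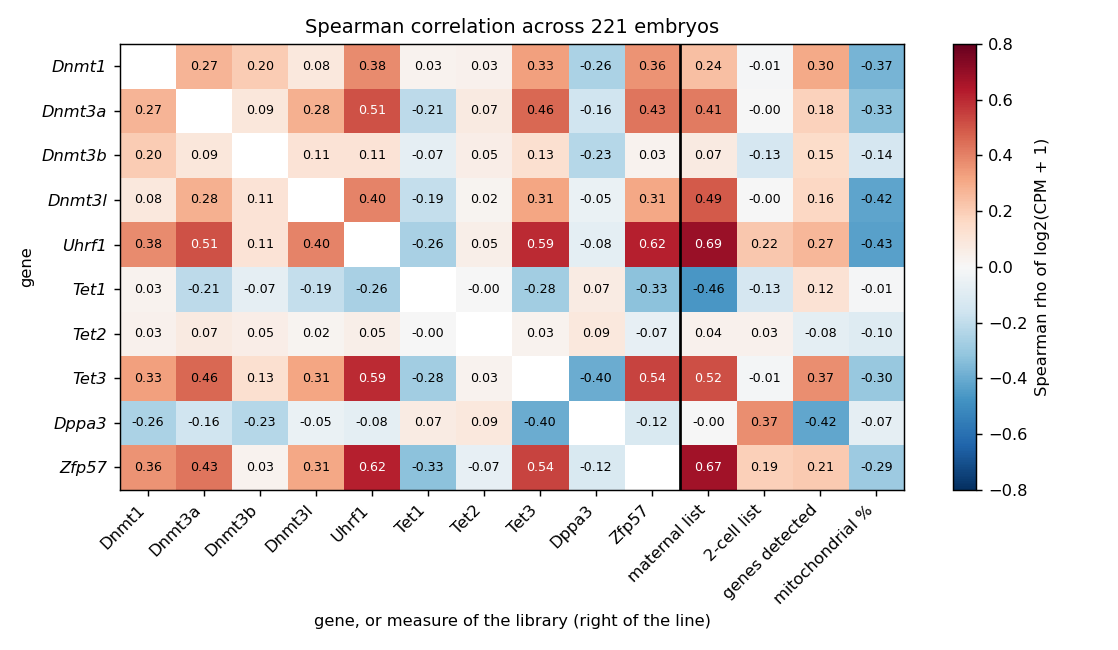
Spearman correlation of log2(CPM + 1) across all embryos between the 10 genes and, right of the line, with the summed maternal and 2-cell lists (log2 of summed CPM plus 0.5), the number of genes counted and the mitochondrial share. *Uhrf1*, *Tet3* and *Zfp57* correlate with each other and with the maternal list, and *Tet1* has -0.46 with that list.

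For each member the 2 other genes with the most similar pattern over all embryos were found by the same correlation. *Uhrf1* was followed most closely by *Nsf* (0.75) and *Dclk2* (0.74), and *Dppa3* by *Lamtor2* (0.75) and *Tipin* (0.72). *Zfp57* was closest to *Rgs2* (0.70) and *Ooep* (0.70), a gene of the subcortical maternal complex that is itself in the maternal list. *Tet3* was closest to *Tiam1* (0.68) and *Mier2* (0.66), *Tet1* to *Pttg1ip* (0.68) and *Zscan5b* (0.65), and *Dnmt3l* to *Klhdc3* (0.62) and *Rbpms2* (0.60). *Dnmt3a* was closest to *Ccdc24* (0.56) and *Slc6a9* (0.54), which overlap on chromosome 4 and may share reads. The closest genes to *Dnmt1*, *Gm34882* and *Tbc1d8*, reached 0.42, those to *Dnmt3b*, *Zfp280b* and *Plekha1*, 0.37 and 0.32, and those to *Tet2*, *Map3k13* and *AW549877*, 0.25 and 0.24. Of these 20 genes only *Lamtor2* was called between the diets, with an adjusted p of 0.0301 in edgeR.

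The wider pathway was read from 6 lists with 85 genes in all, of which 75 were tested. In these, 3 genes were called, all higher in HFD, and 13 had an unadjusted p under 0.05, against 2.15% and 13.1% of all genes tested. In the list of writers and maintenance partners 1 of 12 was called, which was *Pcna*, the replication clamp to which Dnmt1 and Uhrf1 are tied at the replication fork. Its level ran from 6.63 through 7.29 to 8.85 in HFD and from 6.54 through 7.16 to 8.39 in LFD, and 78 HFD embryos lay above the LFD median and 44 under it. The fold change was 0.17 (SE 0.050, adjusted p = 0.0476 in edgeR), close to the threshold, and *Pcna* was also the gene of the highest level in its list, at a mean of 64.8 RPKM. It lost its call in 6 of 20 alternatives, with a fold change of 0.15 to 0.17 and adjusted p-values from 0.0566 with the Y-linked level as a covariate to 0.138 with the number ranges of each diet as a random effect. Without the HFD embryos numbered 31 to 70 it had 0.17 (adjusted p = 0.0753).

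Of the 8 methyl-CpG readers tested, 1 was called. This was *Zbtb38*, a zinc finger protein that binds methylated CpG, at a very low level. It had a mean of 9.84 counts and was counted in 145 embryos and not in 76, and its median was 1.33 CPM in HFD and 0.290 CPM in LFD. The fold change was 1.28 (SE 0.322, adjusted p = 0.0102 in edgeR), and the highest LFD value, 5.62 CPM, was exceeded in 18 HFD embryos. Without the HFD embryos numbered 31 to 70 it was 1.04 (adjusted p = 0.102). In the list of methyl donor supply 1 of 17 was called, *Ahcyl1*, which is related in sequence to the enzyme that clears S-adenosylhomocysteine. Its median was 16.3 CPM in HFD and 12.9 CPM in LFD, with a fold change of 0.41 (SE 0.110, adjusted p = 0.0214 in edgeR), and 84 HFD embryos were above the LFD median and 38 under it. Its median in the HFD embryos numbered 31 to 70 was 21.1 CPM, and without them the fold change was 0.24 (adjusted p = 0.464).

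In the other 3 lists edgeR called none, that is 0 of 12 genes of demethylation and base excision repair, 0 of 12 regulators of Tet and 0 of 14 genes of imprint and heterochromatin protection. At an unadjusted p under 0.05 there were 2, 1 and 3 in edgeR. DESeq2 called *Dcaf1* among the regulators of Tet and *Setdb1* among the protectors, which had fold changes of -0.24 (adjusted p = 0.0675) and -0.22 (adjusted p = 0.0842) in edgeR, and limma-voom called none in these lists. The genes of the highest level in these lists were the abasic site nuclease *Apex1*, with a fold change of 0.25 (SE 0.087, adjusted p = 0.122), the ubiquitin ligase scaffold *Cul4b*, with -0.08 (SE 0.046, adjusted p = 0.504), and the zinc finger gene *Zfp42*, with -0.007 (SE 0.139, adjusted p = 0.993), all in edgeR. The highest among readers and in methyl donor supply were *Mbd3* (-0.003, SE 0.115, adjusted p = 0.998) and *Mat2b* (0.05, SE 0.051, adjusted p = 0.768). The median fold change of the lists lay between -0.06 for the regulators of Tet and 0.05 for the writers and maintenance partners, beside 0.01 over all genes tested. With the number ranges of each diet as a random effect in limma-voom, 0 of the pathway genes were called, as against 86 of all genes, and 11 of them had an unadjusted p under 0.05.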

How the data were processed

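Smart-seq2 RNA libraries, each of 1 embryo at the early 2-cell stage, were grouped by the sire's diet in the sample titles. The authors deposited raw counts per gene. Per the study's methods and the file headers, they trimmed reads with Trim Galore 0.6.6, aligned them with STAR 2.7.10a to GRCm38 (annotation Ensembl 102) and counted them over exons with featureCounts 2.0.3. The strand setting was 2 (reverse), both mates had to align and the mates of a pair were counted separately, which left 65.8% of nonzero counts even. Smart-seq2 marks no strand, so this setting leaves part of a gene's reads uncounted and can give it reads of a gene on the opposite strand. Reads that align to several places or genes are left out by the program's default. The protocol has no molecular identifiers, so PCR copies are counted too, and the error used is the spread between embryos.

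Total counts ran from 1937251 to 17246791 per embryo. The 50 most similar pairs of libraries were compared by a chi-square of their counts, and the lowest value was 14.3 per gene, so none was merged. Diets were compared with the quasi-likelihood test of edgeR 4.0.16 in R 4.3.3 (TMM, filterByExpr by diet, FDR threshold 0.05 over all genes tested), which was tested on simulated data. Alternatives were DESeq2 1.42.0, limma 3.58.1 (voom) and other normalizations, filters, covariates and libraries. Intervals are 95% from the SE, which is the fold change over the root of the F statistic. Levels are log2(CPM + 1), or, between genes, RPKM computed from the counts, the exon length and 1000000 counts. Permutation tests drew 100000 permutations. Sequence words of 31 bases came from GENCODE release 21 transcripts, and promoters from RefSeq. The members, the 6 pathway lists and the range of embryo numbers 31 to 70 were chosen with earlier results of these data known. Named genes were all members, the called genes with the smallest p (up to 3 per direction) and the gene of the highest mean level in each pathway list, and the 2 genes most correlated with each member. *Dcaf1*, *Setdb1* and *Ddb1* were named after their values were seen.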

Additional observations from a re-analysis of the deposited data

How the results depend on the processing

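Of 200 recomputed values for the 10 members, over 20 alternatives each, 184 changed neither sign nor call, 9 passed a threshold that the reported fit did not (4 of them in the unadjusted permutation test), and 7 turned their sign. The sign turned without the HFD embryos numbered 31 to 70 for *Dnmt3a* (0.014), *Tet3* (0.00081), *Dppa3* (-0.042) and *Zfp57* (0.074), and for *Tet2* with the number ranges as a fixed factor (-0.0048), on the scale of mean log2(CPM + 1) (-0.031) and with embryo number as a block (-0.033). Members called numbered 2 with the number ranges as a fixed factor (*Dnmt1* and *Tet3*) and 1 in the embryos with shared numbers only (*Dnmt1*, -0.26, adjusted p = 0.0383), and 0 in the other alternatives apart from the block. Genes called numbered 7030 without the filter on low counts, 546 without the 8 embryos of few genes, 175 without the HFD embryos numbered 31 to 70, 633 in the embryos with shared numbers, 549 with number ranges as a fixed factor and 86 with the ranges of each diet as a random effect, beside the reported 318. Pathway genes called numbered 7, 7, 1, 7, 6 and 0 in the same order, beside the reported 3. The fit with number ranges as a fixed factor also left out the HFD embryos of ranges without LFD embryos. The causes of these changes were not tested. The fits on shared numbers, with total counts as a covariate and with the ranges of each diet were chosen after seeing the data. *Zbtb38* had no adjusted p in DESeq2 and was under the filter of a mean of 10 counts. Pairs of members with a Spearman correlation over 0.3 numbered 12, and 11 without the embryos of few genes. Depth limits *Tet2* most, at a mean of 58.2 counts per embryo.

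Embryo numbers are shared between the diets, so a fit with the number as a block was made over the 94 shared numbers. Its dispersion trend was taken from 1500 genes drawn at random, unlike that of the other fits, and its calls depend on that trend. It called 502 genes and 2 members, *Dnmt1* (-0.30, adjusted p = 0.0179) and *Tet3* (-0.25, adjusted p = 0.0300). It also called 3 pathway genes, *Zbtb38*, *Apex1* and *Ddb1*, of which only *Zbtb38* was called in the reported fit, while *Pcna* (adjusted p = 0.0606) and *Ahcyl1* (adjusted p = 0.106) were not. Deviations of same-numbered embryos from their group means had a median correlation of 0.01 (-0.36 to 0.33), 20 of 94 pairs were over 0.1, and 1 HFD embryo had its own number as its best match, so the numbers share only a number and do not pair the embryos.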
